A study of Mus musculus with 24 samples.

Results

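The 10 genes described here form the core of the circadian clock: Per1, Per2, Per3, Cry1, Cry2, Arntl (also called Bmal1), Clock, Nr1d1, Nr1d2 and Dbp. They were taken by name from the 37991 genes of the count tables, and all 10 were found and passed the low-count filter, as did 15292 genes in all. The RNA came from cerebellum of C57BL/6J males (an inbred mouse strain) aged 7 or 79 weeks, with 2 mRNA sequencing libraries at each age and no treatment or genetic change named for either. The other 20 of the series' 24 samples measure DNA methylation and hydroxymethylation and were not analysed here. Nothing in the labels ties the 2 libraries at an age to separate mice, and the p-values therefore rest on a library-to-library spread that may be technical. The hour of day at which tissue was taken is not given in the sources used here.

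The mammalian clock is a feedback loop that turns once a day in most cells, including neurons and glia of the cerebellum. ARNTL and CLOCK pair on E-box DNA and switch on the Per, Cry, Nr1d and Dbp genes, PER and CRY proteins return to the nucleus and shut ARNTL and CLOCK off, and the Nr1d1 and Nr1d2 products (REV-ERB receptors) repress Arntl. In mouse tissues transcripts of Arntl, Clock and Cry1 are expected to be high from late night to morning, here called the morning group. Those of Nr1d1, Nr1d2, Dbp, Per1, Per3 and Per2 are known to be high from day to evening, here called the evening group. Cry2 has a weak rhythm and was put in neither.

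The libraries held 16367656 to 22826993 gene counts. Levels are given as CPM, counts relative to library size with TMM scaling between libraries, and the granule neuron gene Gabra6 (879 ± 13.5 CPM at 7 weeks, SD, n = 2) and the Purkinje cell genes Calb1 (1028 ± 6.62) and Pcp2 (376 ± 12.8) were abundant. In 79-week replicate 1 the 10 choroid plexus markers summed to 5412 CPM against 17.0 to 39.6 CPM in the other libraries, so that library stands apart, and the log2 fold changes of the clock genes are also given without it. Over all genes, edgeR's quasi-likelihood test called 637 higher (4.17%) and 715 lower (4.68%) at 79 weeks at an adjusted p of 0.05, and 901 higher and 484 lower when libraries were scaled by size alone. With 7-week replicate 1 left out edgeR called 0 genes, though 2610 had an unadjusted p below 0.05, with 7-week replicate 2 left out it called 175, and with 79-week replicate 2 left out 2425.

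Among the 10 clock genes edgeR called 1, Cry2, higher at 79 weeks, while DESeq2 called Per3 and Cry2 higher and limma-voom called none of the 10. Over all genes DESeq2 called 508 of 14707 higher and limma-voom 539 of 15292. With all libraries none of these tools called a member lower, with the low-count filter in edgeR and limma-voom and without it in DESeq2. Clock was lower at an unadjusted p under 0.05 in edgeR. With 7-week replicate 1 left out no member was called (3 had an unadjusted p under 0.05), and leaving out 7-week replicate 2 left Per1, 79-week replicate 1 Per1 and Per3, and 79-week replicate 2 Per1, Per3 and Cry2 as the called members. At an unadjusted p under 0.05 in all libraries stood 4 of the 10, Per1, Per3 and Cry2 higher and Clock lower, against 26.7% of all tested genes. Both 79-week libraries lay above both 7-week libraries for 3 members (Per1, Per3, Cry2), against 29.1% of tested genes, and below them for 1 (Clock), against 28.7%. The median log2 fold change of the members was 0.07, and 0.01 over all tested genes, while the median absolute change was 0.14 for the members and 0.16 for all. Without 79-week replicate 1 the log2 fold changes of members not given below were 0.39 for Per2, 0.02 for Cry1, 0.11 for Arntl, -0.15 for Clock, 0.02 for Nr1d1, -0.04 for Nr1d2 and -0.27 for Dbp, so that Cry1 and Nr1d2 changed sign and Dbp lay further below 0. In bulk tissue, fewer cells of a type and less RNA per cell cannot be told apart.

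**Figure D1:**
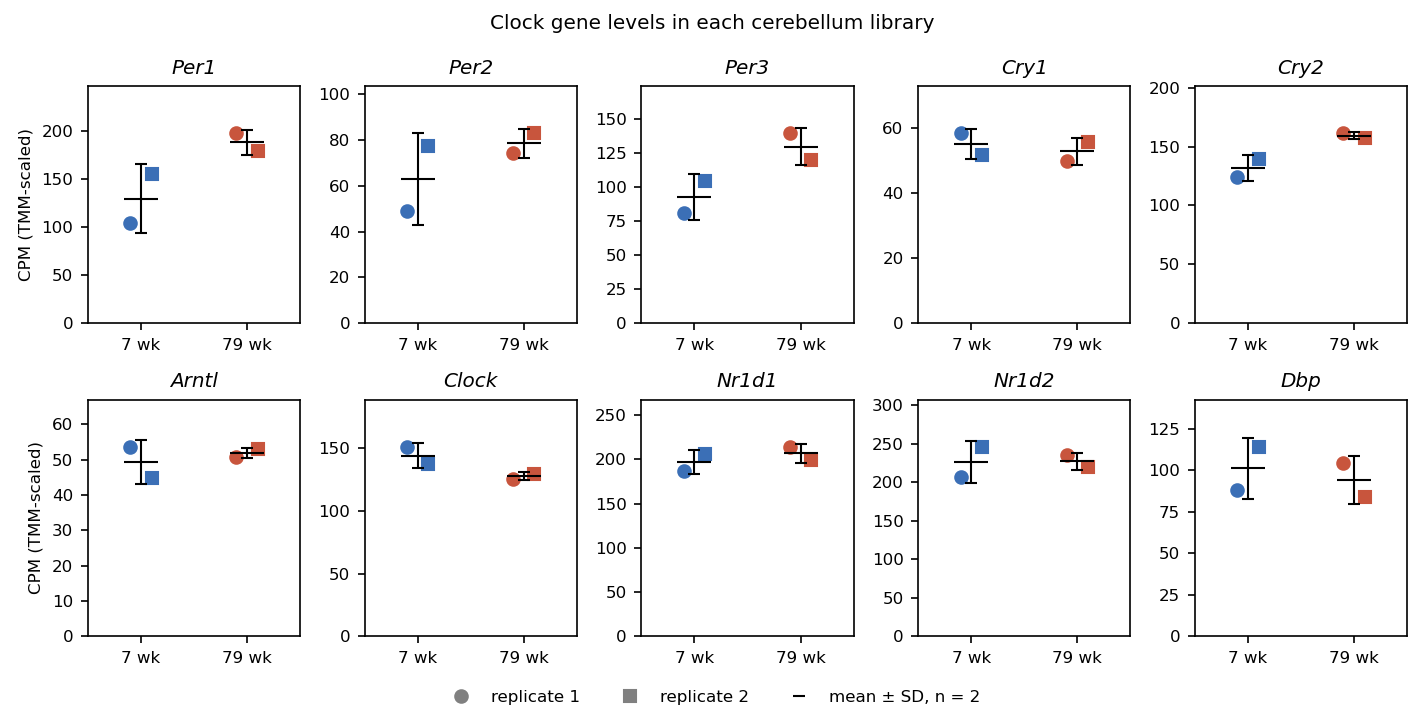
Level of each clock gene in CPM (vertical axes start at 0) in the 4 libraries, by age, with circles for replicate 1, squares for replicate 2 and bars for mean ± SD (n = 2). The ages separate for Per1, Per3, Cry2 and Clock and overlap for the other 6 genes, and the 7-week libraries lie far apart for the Per genes.

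Per1 (ENSMUSG00000020893), a repressor of the loop that is also induced quickly by neuronal activity and by glucocorticoids, stood at 104 and 154 CPM at 7 weeks and at 197 and 178 CPM at 79 weeks. Both old libraries were above both young ones, but the young libraries differed from each other by more than the old libraries differed from the higher young one. The means were 129 ± 35.7 and 188 ± 13.2 CPM (SD, n = 2), 1.45-fold, and the difference did not pass the test (log2 fold change 0.53, SE 0.16, 95% interval 0.17 to 0.90, adjusted p = 0.0767, edgeR). Its size differed with the young library kept. Against 7-week replicate 2 alone the log2 fold change was 0.28, in a fit that called no gene at all. Against 7-week replicate 1 alone it was 0.85, with an adjusted p of 0.0356. Without the library high in choroid plexus markers it was 0.46 and was called (adjusted p = 0.0142), and with 79-week replicate 2 left out it was 0.60 (adjusted p = 0.00157). In such fits the lone library of an age is taken to vary as the remaining pair does. DESeq2 on all libraries did not call Per1 (adjusted p = 0.312).

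Per3 (ENSMUSG00000028957), the family member that is least needed for the rhythm itself, was at 80.5 and 104 CPM at 7 weeks and at 139 and 119.6 CPM at 79 weeks. Its ages also did not overlap, and it lay just outside the threshold (92.5 ± 16.9 and 129 ± 13.8 CPM, log2 fold change 0.48, SE 0.12, adjusted p = 0.0534). Small choices moved it across: it was called with RLE scaling (adjusted p = 0.0498) and with DESeq2 (adjusted p = 0.00203). Library size scaling (adjusted p = 0.0379), other low-count filter settings and a replicate block also called it. With upper-quartile scaling (adjusted p = 0.052), limma-voom (adjusted p = 0.0607) and robust dispersions (adjusted p = 0.167) it was not called. Leaving out 79-week replicate 1 gave a log2 fold change of 0.37, and leaving out 79-week replicate 2 gave 0.58. Against 1 young library Per3 was not called, at 0.68 with 7-week replicate 2 left out. With 7-week replicate 1 left out it was at 0.30, in a fit that called no gene at all.

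Per2 (ENSMUSG00000055866), whose protein is a main brake on ARNTL and CLOCK, was at 48.9 and 77.3 CPM at 7 weeks and at 74.2 and 83.0 CPM at 79 weeks. The ages overlapped, since 7-week replicate 2 lay between the old libraries. The log2 fold change was 0.31 (SE 0.18, 95% interval -0.11 to 0.73, adjusted p = 0.323). It was 0.02 against 7-week replicate 2 alone and 0.68 against 7-week replicate 1 alone, so these libraries give no single value for an age difference in Per2.

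Cry2 (ENSMUSG00000068742), a photolyase-like repressor that binds and silences ARNTL and CLOCK together with PER, was at 123.9 and 139.7 CPM at 7 weeks and at 161 and 157 CPM at 79 weeks. It rose from 132 ± 11.2 to 159 ± 2.78 CPM, 1.21-fold (95% interval 1.09 to 1.34, log2 fold change 0.27, SE 0.07, adjusted p = 0.0444). The call was close to the threshold. With 7-week replicate 2 left out it was lost (log2 fold change 0.36). With 7-week replicate 1 left out (0.19) it could not hold, since that fit called no gene at all. It was also lost without 79-week replicate 1 (0.26, adjusted p = 0.0569) and in limma-voom (adjusted p = 0.0559). It held without 79-week replicate 2 (0.29) and in DESeq2 (adjusted p = 0.0298). The lowest adjusted p of the 14 alternatives, 0.00031, came only from the fit with no low-count filter, which kept every gene with a count.

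Cry1 (ENSMUSG00000020038), the stronger repressor of the pair and a gene of the morning group, was at 58.2 and 51.6 CPM at 7 weeks and at 49.7 and 55.6 CPM at 79 weeks. The ages overlapped in part, with the lowest value in an old library and the highest in a young one (log2 fold change -0.06, SE 0.09, 95% interval -0.27 to 0.15, adjusted p = 0.735). The log2 difference of Cry1 from Cry2, read only as a change between libraries because CPM are not scaled to gene length, was -1.08 and -1.43 at 7 weeks and -1.69 and -1.49 at 79 weeks. Cry1 thus stood lower relative to Cry2 in both old libraries, by 0.34 log2 units on average, a change that was described and not tested. The 7-week libraries lay about as far from each other, and 79-week replicate 2 (-1.49) was close to 7-week replicate 2 (-1.43).

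The DNA around annotated start sites was searched for the short motifs named below. It is printed here for the 3 members whose 79-week libraries both lay above the 7-week libraries, and for Cry1, the paralogue of Cry2. RefSeq promoter windows (mouse build GRCm38.p6, 250 bases before to 50 after a start) were held for 9 of the 10 members, 13 windows in all, with Per2 the member lacking one. The motifs searched on both strands were the E-box CACGTG, bound by ARNTL and CLOCK, its variant CACGTT, the D-box TTATGNAA, bound by DBP and its relatives, the RORE cores TAGGTCA and TGGGTCA, bound by REV-ERB receptors, and the cyclic AMP element TGACGTCA. The E-box and its variant share letters but cannot match at the same place on the same strand. Capitals below mark matches in the 250 bases before the start, read 5′ to 3′ on the gene's strand.
Per1, chr11:69098699-69098948, plus strand: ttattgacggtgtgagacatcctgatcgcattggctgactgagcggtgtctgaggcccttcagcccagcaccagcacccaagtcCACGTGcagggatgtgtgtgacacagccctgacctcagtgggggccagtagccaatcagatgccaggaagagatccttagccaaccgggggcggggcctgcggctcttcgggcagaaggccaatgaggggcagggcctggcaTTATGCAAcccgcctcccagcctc
Per3, chr4:151044666-151044915, minus strand: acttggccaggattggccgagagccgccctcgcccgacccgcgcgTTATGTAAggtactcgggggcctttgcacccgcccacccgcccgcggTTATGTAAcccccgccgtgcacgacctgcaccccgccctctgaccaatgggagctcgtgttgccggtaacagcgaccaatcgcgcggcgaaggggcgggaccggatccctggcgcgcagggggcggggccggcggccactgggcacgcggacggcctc
Cry1, chr10:85185055-85185304, minus strand: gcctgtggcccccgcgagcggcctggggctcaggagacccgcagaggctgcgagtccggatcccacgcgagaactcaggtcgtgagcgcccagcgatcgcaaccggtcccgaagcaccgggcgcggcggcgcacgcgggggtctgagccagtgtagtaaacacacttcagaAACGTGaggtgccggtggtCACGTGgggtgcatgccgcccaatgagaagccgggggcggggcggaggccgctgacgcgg
Cry2, chr2:92434070-92434319, minus strand: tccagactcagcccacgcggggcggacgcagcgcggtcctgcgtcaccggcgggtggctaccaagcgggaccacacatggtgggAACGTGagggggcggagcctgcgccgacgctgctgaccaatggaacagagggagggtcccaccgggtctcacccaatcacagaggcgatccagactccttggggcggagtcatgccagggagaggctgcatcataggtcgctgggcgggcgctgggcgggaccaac

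Per1 held an E-box 166 bases and a D-box 24 bases before its start, a pair found in 0.14% of the 32851 windows of the table. That is the first of its 2 annotated starts, and the window of the other held 0 of the motifs. Per3 held 2 D-boxes, 205 and 158 bases before its start, and 0.161% of windows held 2 or more. Cry1 held an E-box at 60 bases and the CACGTT variant, on the other strand, at 79 bases (0.414% of windows held both), while its paralogue Cry2 held the variant alone, at 166 bases. These combinations were picked because member windows held them, so their shares are no measure of rarity beyond chance. Over all windows the E-box was in 7.15%, the variant in 4.68% and the D-box in 3.38%. Nr1d1 held the variant 28 bases before its start. Arntl, which REV-ERB represses, held the core TAGGTCA (2.61% of windows) just past 1 of its annotated starts, at base 31 of the transcript, in the stretch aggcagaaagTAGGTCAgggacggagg. No window of Dbp, Nr1d2 or Clock held any of the 6 motifs, and no member window held TGGGTCA (3.98% of all) or TGACGTCA (1.79% of all). A match is a description of letters, not a site in use.

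Arntl (ENSMUSG00000055116), the activator without which the loop stops, was at 53.6 and 44.8 CPM at 7 weeks and at 50.8 and 52.9 CPM at 79 weeks, with both old libraries between the young ones. Its log2 fold change was 0.08 (SE 0.10, 95% interval -0.15 to 0.30, adjusted p = 0.648). Clock (ENSMUSG00000029238), its partner, was at 151 and 137 CPM at 7 weeks and at 126 and 129.8 CPM at 79 weeks. Both old libraries were below both young ones, and the difference did not pass the test (144 ± 9.89 and 128 ± 2.98 CPM, log2 fold change -0.17, SE 0.06, unadjusted p = 0.0244, adjusted p = 0.123). It lay between -0.24 and -0.11 over 14 alternatives. The log2 difference of Arntl from Clock was -1.48 and -1.60 at 7 weeks and -1.30 and -1.29 at 79 weeks, so the old libraries held more Arntl relative to Clock, by 0.25 log2 units, again untested.

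Nr1d1 (ENSMUSG00000020889), the main repressor of Arntl, was at 187 and 207 CPM at 7 weeks and at 214 and 199.5 CPM at 79 weeks. The ages overlapped (log2 fold change 0.07, SE 0.06, adjusted p = 0.538), and the 95% interval of its fold ran from 0.946 to 1.16. Nr1d2 (ENSMUSG00000021775), its relative, was at 207 and 246 CPM at 7 weeks and at 235 and 219.7 CPM at 79 weeks, inside the young range in both old libraries. Its log2 fold change was 0.004 (95% interval -0.19 to 0.20, adjusted p = 0.977). Dbp (ENSMUSG00000059824), a D-box activator that carries the rhythm to output genes and is known for one of its widest swings, was at 88.0 and 114 CPM at 7 weeks and at 104 and 83.7 CPM at 79 weeks. The spread within each age was larger than the difference between them (101 ± 18.3 and 94.1 ± 14.6 CPM, log2 fold change -0.11, SE 0.14, 95% interval -0.43 to 0.21, adjusted p = 0.660).

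**Figure D2:**
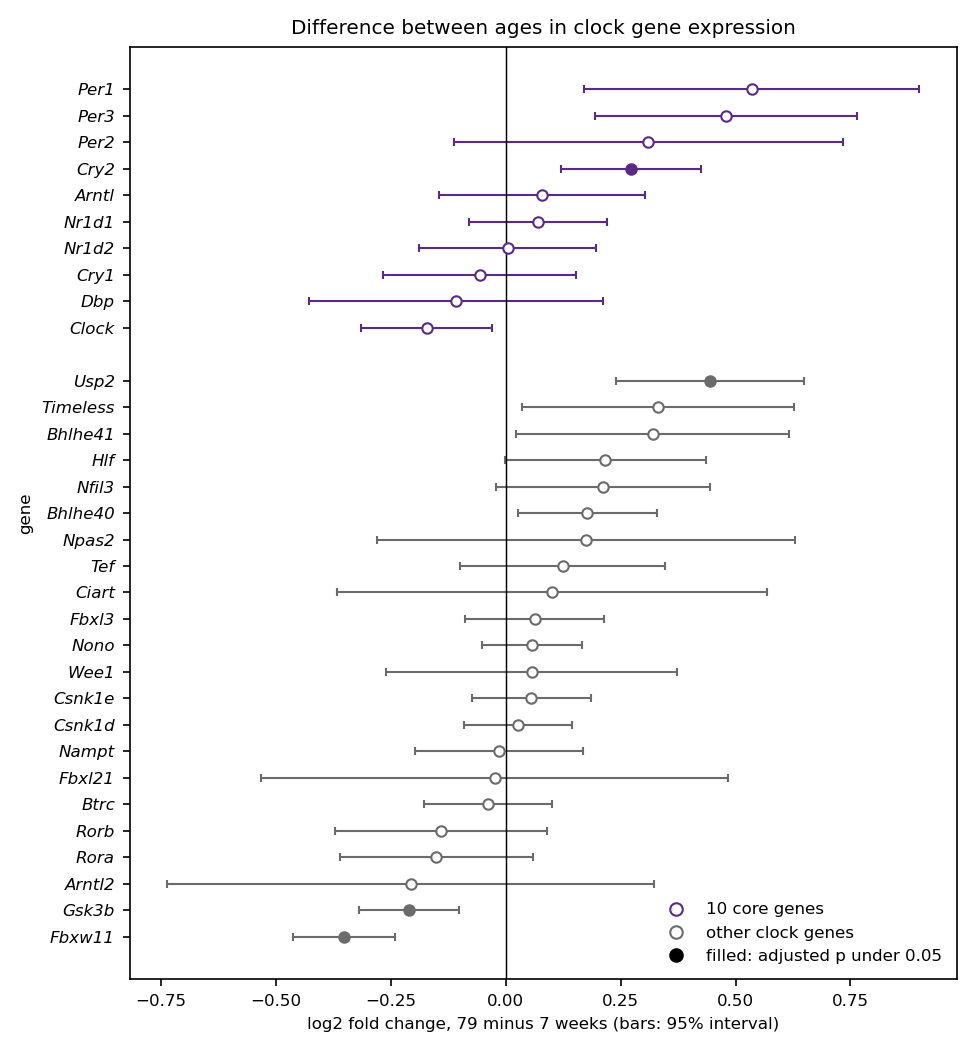
Log2 fold change of each gene, 79 minus 7 weeks, with its 95% interval (horizontal axis), for the 10 core genes (upper block) and 22 other clock genes (lower block), filled where the adjusted p was under 0.05. Cry2 is the filled core gene, at 0.27, and Per1 and Per3 lie further right with wider intervals.

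Counting error was smaller than the spread of the Per genes. Members had 785 to 5094 reads per library, which gives a counting error of at most 3.57% of a value (Per2 in 7-week replicate 1), while Per2 differed 1.58-fold and Per1 1.49-fold between the 7-week libraries. The annotated spans of 7 members overlap another gene, among them Nr1d1 with Thra (1075 bases), Dbp with Sphk2 (741 bases), Per3 with Uts2 (4714 bases) and Cry2 with the noncoding gene D930015M05Rik (23417 bases). The strand setting of the counting is not given, so reads in shared stretches may have been left out or placed with the other gene.

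The phase groups were then compared within and between ages. Within the 7-week pair, all 6 evening genes were higher in replicate 2 than in replicate 1, by 0.14 (Nr1d1) to 0.65 (Per2) log2 units, and all 3 morning genes were lower, by 0.14 (Clock), 0.17 (Cry1) and 0.26 (Arntl). Of all tested genes, 51.3% were higher in replicate 2, with a median absolute difference of 0.11. The difference of Per2 was exceeded by 2.99% of tested genes, that of Per1 by 4.38%, that of Per3 and that of Dbp by 10.8% each, that of Arntl by 20.1% and that of Nr1d1 by 40.0%. Cry2, in neither group, was 0.17 higher in replicate 2.

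**Figure D3:**
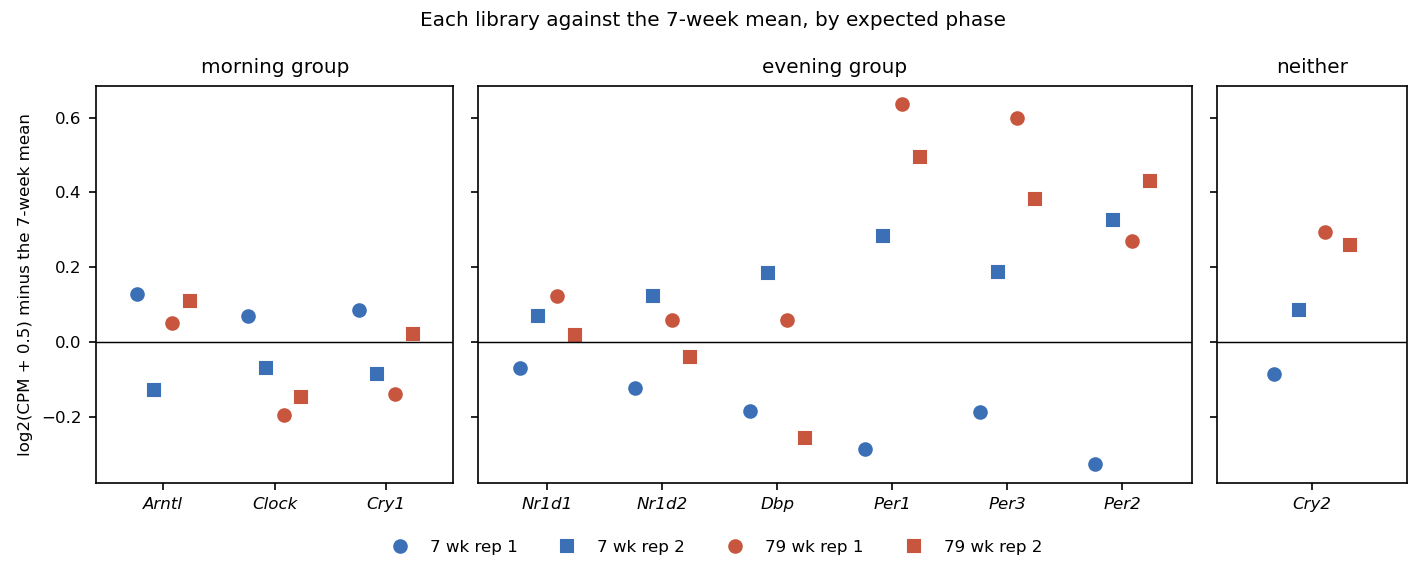
Log2(CPM + 0.5) of each member minus its 7-week mean (vertical axis) in the 4 libraries, with genes grouped by the time of day at which they are expected to be high. In 7-week replicate 1 (blue circles) the morning genes lie above 0 and the evening genes and Cry2 below it, and Per1 and Per3 are higher in both 79-week libraries (red) than in either 7-week library.

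Other clock genes of known phase, which are not among the 10, were compared in the same way. All 5 of the evening genes Tef, Hlf (both relatives of Dbp), Ciart and Bhlhe41 (E-box repressors) and Usp2 (a deubiquitinase) were higher in replicate 2, from 0.28 (Usp2) to 0.64 (Ciart). Of the 2 morning genes, Npas2, a stand-in for Clock, was 0.24 lower, and Nfil3, which opposes Dbp at D-boxes, was 0.004 higher. Each of the 10 members differed less between the 79-week libraries. There, 5 of the 6 evening members were higher in replicate 1, from 0.10 (Nr1d2 and Nr1d1) to 0.32 (Dbp), Per2 was 0.16 lower, and the 3 morning members were 0.05 to 0.16 lower, while 49.9% of tested genes were higher in replicate 1. Of the other genes of known phase, 4 of 5 evening genes were higher in replicate 1 (Hlf was 0.09 lower), Npas2 was 0.05 higher and Nfil3 0.04 lower, the last a wider gap than at 7 weeks. With 2 libraries per age these are differences between single libraries and have no test.

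**Figure D4:**
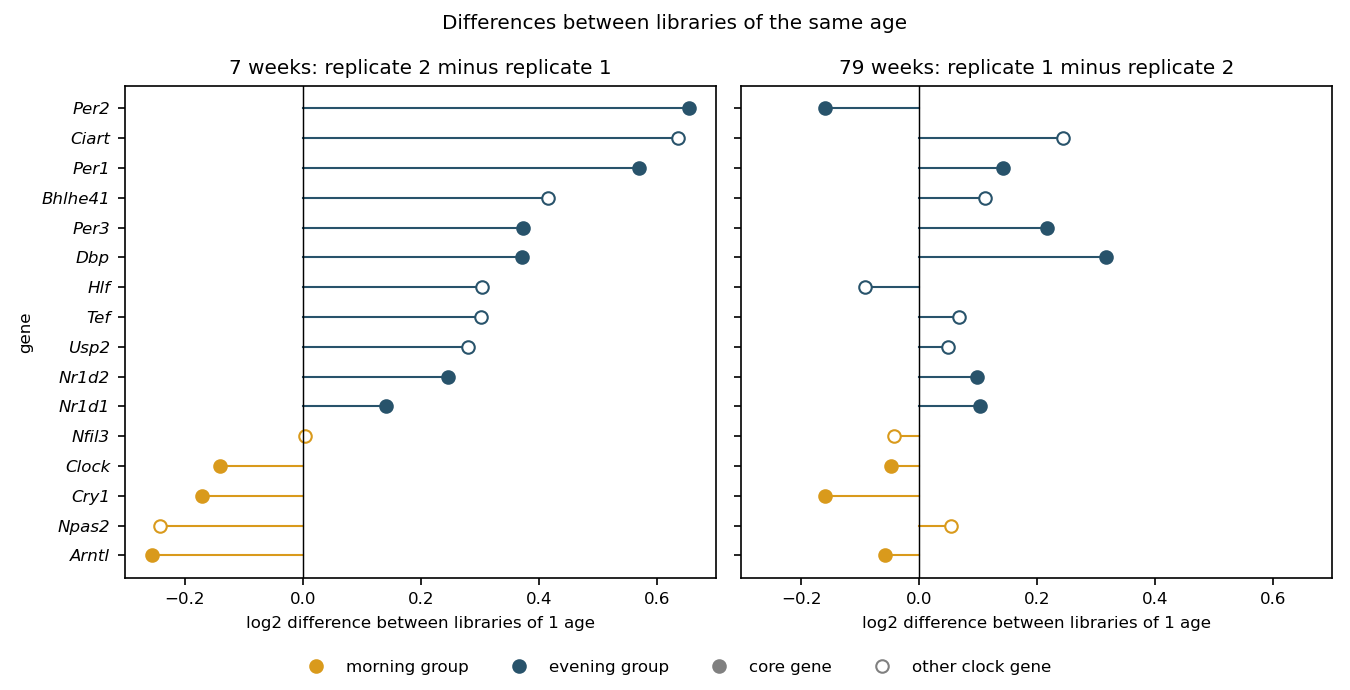
Log2 difference between the 2 libraries of an age (horizontal axis), at 7 weeks (left, replicate 2 minus 1) and 79 weeks (right, replicate 1 minus 2), for core genes (filled) and other clock genes of known phase (open). At 7 weeks all 11 evening genes lie right of 0, up to 0.65, and at 79 weeks the differences lie between -0.16 and 0.32.

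The mean log2 level of the evening members minus that of the morning members put each library on 1 scale: 0.44 and 1.02 at 7 weeks, and 1.12 and 0.91 at 79 weeks. The lowest value was that of 7-week replicate 1, and 7-week replicate 2 lay between the old libraries, so the ages overlapped. The mean was 0.28 higher at 79 weeks (0.73 ± 0.41 and 1.01 ± 0.15, SD, n = 2), less than the spread at 7 weeks, and it was -0.0091 with 7-week replicate 1 left out. With 79-week replicate 1 left out it was 0.18. With the other clock genes of known phase alone the same measure was 2.94 and 3.45 at 7 weeks and 3.30 and 3.23 at 79 weeks. On average over the evening members the old libraries stood 0.29 and 0.17 above the 7-week mean, and over the morning members at -0.09 and -0.01. The evening members did not move together between ages: Per1 and Per3 were 0.38 to 0.64 above the 7-week mean in both old libraries, while Nr1d1, Nr1d2 and Dbp lay between -0.26 and 0.12.

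Of 25 other clock genes, 22 were tested, with 1 called higher, 2 lower and 19 not called (median log2 fold change 0.06), against 4.17% higher and 4.68% lower over all tested genes. Among the listed partner transcription factors Rora and Tef were not called, at 478 ± 65.1 and 431 ± 4.94 CPM for Rora at 7 and 79 weeks (log2 fold change -0.15, SE 0.09, adjusted p = 0.334) and at 364 ± 54.0 and 397 ± 13.2 CPM for Tef (0.12, SE 0.10, adjusted p = 0.454). Of the 10 kinases, ligases and partners of PER and CRY, Usp2 rose from 108 ± 14.9 CPM at 7 weeks to 147 ± 3.51 CPM at 79 weeks (log2 fold change 0.44, SE 0.09, adjusted p = 0.025). Fbxw11, a subunit of a ubiquitin ligase that marks PER for breakdown, fell from 244 ± 3.16 to 191 ± 3.08 CPM (-0.35, SE 0.05, adjusted p = 0.00919). Gsk3b, a kinase of several clock proteins, fell from 263 ± 4.11 to 227 ± 0.33 CPM (-0.21, SE 0.05, adjusted p = 0.0352). Without 7-week replicate 1 none of the 3 was called, in a fit that called no gene at all. Their log2 fold changes there were 0.31 (Usp2), -0.37 (Fbxw11) and -0.20 (Gsk3b). When 7-week replicate 2 was left out, Usp2 alone was called (adjusted p = 0.0366). Gsk3b was also lost when either 79-week library was left out (adjusted p = 0.0823 and 0.0614), with scaling by library size (adjusted p = 0.0772) and with the replicate number as a block (adjusted p = 0.0542).

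The casein kinase genes Csnk1d and Csnk1e, which time PER breakdown, were not called, at 127 ± 0.57 and 129 ± 3.19 CPM for Csnk1d and 87.0 ± 0.76 and 90.4 ± 0.48 CPM for Csnk1e (adjusted p = 0.779 and 0.566). The outputs Nampt and Wee1 were not called (log2 fold changes of -0.01 and 0.06). The neuropeptide genes Avp, Vip and Prok2, signals of the central clock in the hypothalamus, had at most 3 reads in any library and were not tested.

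Lists of genes that respond to neuronal activity or to glucocorticoids, and of cell type markers, were counted in the same fit. In it 4.17% of all tested genes were called higher and 4.68% lower. Immediate early genes, the quick response to neuronal activity, summed to 177 and 207 CPM at 7 weeks and to 592 and 292 CPM at 79 weeks, and 3 of 9 tested were called higher and 6 not called (among these Arc, at -0.31 on the log2 scale). The smallest p among them were those of Fosb and Fos, and Fos was at 8.35 and 18.1 CPM at 7 weeks and at 117 and 50.6 CPM at 79 weeks (adjusted p = 0.016). Glucocorticoid-responsive genes summed to 561 and 639.6 CPM at 7 weeks and to 509 and 502 CPM at 79 weeks, and 4 of 10 were called lower and 6 not called (among these Ddit4, at 0.26), with the smallest p for Cdkn1a and Klf9 (log2 fold changes -0.56 and -0.33). Markers of granule neurons were called lower in 5 of 8, of Purkinje cells in 4 of 7 and of oligodendrocytes in 5 of 8, and microglial markers were called higher in 5 of 7. Of 7 astrocyte and Bergmann glia markers 2 were called higher and 1 lower, and of 3 tested ependymal markers 2 were called higher. The part of these lists in the clock gene values was not tested.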

How the data were processed

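Per the labels, RNA was taken up in Trizol and libraries came from the Universal Plus mRNA-Seq kit. The authors deposited raw counts of reads for each Ensembl gene. The submitters' processing notes name cutadapt, STAR, HTSeq and build mm9, without versions or roles, and the sources used here give neither annotation release nor strand setting. Summary lines that name no gene were left out of totals (reads in no feature 18.7% to 20.4%, not uniquely aligned 8.02% to 8.25%). The libraries of an age differed beyond sampling noise (chi-square per degree of freedom 6.07 at 7 weeks and 17.2 at 79 weeks). The median absolute log2 difference between them over tested genes was close, at 0.109 for 7 weeks and 0.106 for 79 weeks.

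Genes were kept by filterByExpr (minimum count 10, minimum total 15), scaled by TMM (factors 0.981 to 1.023) and tested across all 15292 kept genes with edgeR 4.0.16 in R 4.3.3 (quasi-likelihood F test, 79 minus 7 weeks, no covariates, Benjamini-Hochberg adjustment over all tested genes, threshold 0.05). Standard errors were the log2 fold change divided by the root of F. Phase measures used log2(CPM + 0.5) and have no test. The fit was checked on simulated counts. Alternatives were other scalings, filters and pseudocounts, DESeq2 1.42.0, limma-voom 3.58.1, robust dispersions, a replicate block and leaving out each library. DESeq2 was given every gene with a count, without filterByExpr. A crossed block and the alternatives for the called other clock genes were added after the data were seen.

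The members, gene lists and phase groups were chosen with earlier results of these data known. Part of the other clock gene list is not reported here. Symbols came from a table of gene names that matched 32919 of 37991 identifiers. All members were named, and of other clock genes those called or, in a role with none called, the 2 most abundant. Csnk1d, Csnk1e, Avp, Vip, Prok2 and the genes of known phase were named beside these, the first 5 after their values were seen, as were Arc and Ddit4. Promoter sequences and gene spans are RefSeq's for GRCm38.p6, another build than that of the counts.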

Additional observations from a re-analysis of the deposited data

How the results depend on the processing

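Of the 10 core genes, the count called higher was 1 with all libraries in edgeR. It was 2 with RLE scaling, library size scaling, a filter of 1 CPM in 2 libraries and DESeq2, 4 with no low-count filter (which also called 1 lower), 0 in limma-voom and 0 to 3 when each library was left out. With the replicate number as a block it was 3 (Per1, Per3 and Cry2), as with a crossed block. Over all genes, edgeR called 637 of 15292 higher with no block, 670 with the replicate block and 1010 with the crossed block. It called 641 higher with RLE scaling, 901 with library size scaling, 693 of 14162 with the 1 CPM filter and 1602 of 23285 with no low-count filter. DESeq2 called 508 of 14707 genes higher, and limma-voom 539 of 15292. The labels do not say that a replicate number marks a shared animal or day, and deviations of same-numbered libraries correlated at -0.106 across genes. Of the other clock genes, 3 were called higher with no low-count filter, 2 with the crossed block and 0 to 2 without each library. Those called lower were 1 with library size scaling, 1 with the replicate block and 0 or 1 without each library. Over all genes 1352 were called with all libraries, against 3051 with no low-count filter and 0 to 2425 without each library. Small differences changed sign. Nr1d2 was at -0.0032 in DESeq2 and between -0.12 and 0.13 without each library, Cry1 between -0.15 and 0.025, Nr1d1 between -0.0024 and 0.14, Arntl between -0.051 and 0.21 and Dbp between -0.28 and 0.091. Per1, Per2, Per3, Cry2 and Clock kept their direction in all 14 alternatives. The evening minus morning difference was -0.0091 to 0.57 without each library and 0.20 to 0.29 under its 7 other alternatives. The cause of these shifts was not tested.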
